A study of Homo sapiens with 45 samples.

Results

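The genes described here are 10 regulators of the passage from G1 to S phase: MYC, MYB, CCNE1, CCNE2, CCND3, CDK2, CDK4, E2F1, CDC25A and CDKN1B. They were taken by name from the deposited table, 10 of its 57353 gene symbols, and all 10 passed the filter on low counts in every line. Polyadenylated RNA of 45 libraries from 3 human breast cancer cell lines had been sequenced to compare the response of lobular and ductal carcinoma cells to estrogen and to the loss of 3 of its regulators. MDA-MB-134-VI, called MM134 here, is an invasive lobular carcinoma line, as is MDA-MB-330, called MM330, and HCC1428 is an invasive ductal carcinoma line. All cells were kept in hormone-deprived medium for 3 days and received an siRNA, 24 h before hormone where it was given. Each line had 5 groups of 3 libraries. The siNT group carried a non-targeting siRNA and no hormone. The protocol describes a vehicle, 0.01% ethanol, while the sample labels call this group untreated, so whether siNT cells received the vehicle is not settled. The other 4 groups received 100 pM estradiol (E2) for 24 h, together with the non-targeting siRNA (siNT_E2) or an siRNA against the estrogen receptor gene ESR1 (siER_E2), FOXA1 (siFOXA1_E2) or MDC1 (siMDC1_E2). The ductal type is represented by 1 line, so tumour type and line cannot be told apart. Nothing in the labels ties a group's 3 libraries to 3 separately grown dishes, and the p-values then measure the spread between these libraries, which may be technical.

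A cell leaves G1 when cyclin D with CDK4 or CDK6, and then cyclin E with CDK2, phosphorylate the retinoblastoma protein and release E2F factors, which switch on genes of DNA replication. E2F1 is such a factor, and CCNE1, CCNE2 and CDC25A are themselves known E2F targets, so that the switch feeds back on itself. CDC25A is the phosphatase that removes inhibitory phosphates from CDK2, and CDKN1B (p27) is an inhibitor of cyclin E with CDK2. In estrogen-dependent breast cancer cells, MYC and MYB are classical early targets of the estrogen receptor, MYC being a transcription factor of growth and ribosome synthesis and MYB one of progenitor and luminal cells.

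The RefSeq promoter table (GRCh38.p14) held 7 of the 10 genes, all but MYC, CCNE2 and CDK2. In the 250 bases before the start, a full estrogen response element, GGTCA and TGACC with 3 bases of any kind between them, was found in 0 of the 7, against 0.0399% of all 35116 promoters in the table. One of 3 E2F sites (TTTCGCGC, TTTGGCGC or TTTCCCGC, either strand, overlapping matches counted) was found in 2 of the 7, E2F1 and CDC25A, against 2.32% of all promoters. The E-box CACGTG, the letters that MYC with MAX is known to bind, was found only in the window of CDK4 among these 7, with 3 matches at 216, 196 and 101 bases before the start, against 6.34% of all promoters. The windows of E2F1 (chr20:33686386-33686635, minus strand) and CDC25A (chr3:48188418-48188667, minus strand) are printed 5′ to 3′ because both genes moved together in the results below. The TTTGGCGC site is in capitals and begins 20 bases before the start in E2F1 and 44 bases before it in CDC25A.
E2F1: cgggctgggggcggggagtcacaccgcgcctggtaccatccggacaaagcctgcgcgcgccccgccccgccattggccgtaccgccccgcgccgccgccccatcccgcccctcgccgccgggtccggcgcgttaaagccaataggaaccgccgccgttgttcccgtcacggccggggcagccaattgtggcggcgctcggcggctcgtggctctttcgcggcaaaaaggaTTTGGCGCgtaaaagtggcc
CDC25A: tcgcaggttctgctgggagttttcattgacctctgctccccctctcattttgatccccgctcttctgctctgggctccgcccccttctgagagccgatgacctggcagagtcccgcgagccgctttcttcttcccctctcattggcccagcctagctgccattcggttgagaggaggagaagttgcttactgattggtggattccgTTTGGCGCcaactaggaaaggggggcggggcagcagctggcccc
A match is a description of the letters and no evidence of binding.

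Libraries held 21043426 to 36738812 counts, without molecular identifiers. Levels are given in CPM, a gene's counts relative to a common library total, with totals scaled by TMM over all 45 libraries, so a gene's level can be compared across lines. Adjusted p-values come from edgeR's quasi-likelihood test over all genes with Benjamini-Hochberg adjustment, a gene is called below 0.05, and the errors of log2 fold changes are SE. ESR1 fell by 3.12 ± 0.04, 3.68 ± 0.08 and 1.00 ± 0.03 on the log2 scale in siER_E2 against siNT_E2 in MM134, MM330 and HCC1428, FOXA1 by 1.97, 1.86 and 1.64 in siFOXA1_E2, and MDC1 by 2.13, 2.30 and 1.94 in siMDC1_E2, all called. ESR1 also fell in siMDC1_E2, by 2.16 in MM134, 0.96 in MM330 and 0.12 in HCC1428, and in siFOXA1_E2, by 2.29, 0.45 and 0.16. MDC1 fell in siER_E2 by 0.63, 0.98 and 1.17 in MM134, MM330 and HCC1428, and in siFOXA1_E2 by 0.35, 0.71 and 0.90, all called. In siNT_E2 against siNT, MDC1 itself rose by 0.50 in MM330 and 1.39 in HCC1428, and was not called in MM134 (adjusted p = 0.96). Against siNT, MDC1 in HCC1428 stood at 0.22 in siER_E2 and -0.54 in siMDC1_E2. All 8 luminal epithelial markers were detected in each line, with summed levels of 6459 to 19249 CPM. Immune markers summed to at most 1.12 CPM and endothelial markers to at most 11.1 CPM. The fibroblast markers summed to 20.8 to 117 CPM, with 2 of 6 detected in MM134, 3 in MM330 and 4 in HCC1428. COL3A1 was at 0 in all libraries. In 11 libraries (2 of MM134, 4 of MM330 and 5 of HCC1428) processed pseudogenes held 0.337 to 0.494% of counts, against 0.123 to 0.158% in the other 34. They fell unevenly over groups, among them 2 of 3 siNT and 2 of 3 siER_E2 libraries of HCC1428, and their part in the results is given by leaving them out.

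In GRCh38 with the GENCODE v29 annotation, E2F1 (ENSG00000101412.12) lies at chr20:33675683-33686404 and CDC25A (ENSG00000164045.11) at chr3:48157146-48188402, both on the minus strand. MYB (ENSG00000118513.18) spans chr6:135181315-135219173 on the plus strand and CCND3 chr6:41934933-42050357 on the minus strand. CCNE1 lies at chr19:29811898-29824308, CDK2 at chr12:55966769-55972784 and CDKN1B at chr12:12715058-12722371, all on the plus strand, and CDK4 at chr12:57747727-57756013 on the minus strand. MYC (ENSG00000136997.17) spans chr8:127735434-127741434 on the plus strand and CCNE2 chr8:94879770-94896678 on the minus strand. Values are summed over all reads assigned to a gene symbol.

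MYC rose with E2 in both lobular lines and not detectably in HCC1428, and its level under knockdown differed between the genes knocked down. In MM134, MYC stood at 18.1, 14.6 and 13.2 CPM in siNT and at 101, 98.9 and 98.2 CPM in siNT_E2, a 6.44-fold rise (log2 fold change 2.69 ± 0.06, adjusted p = 5.4e-19). In MM330 it stood at 0.416, 0.481 and 0.531 CPM in siNT, from 11, 17 and 13 counts, and at 21.5, 19.2 and 21.9 CPM in siNT_E2 (5.46 ± 0.19, adjusted p = 1.6e-12). MM330 without hormone thus held almost no MYC RNA, and the rise was 44.0-fold. In HCC1428 the libraries of both groups overlapped, at 59.0, 54.4 and 55.1 CPM in siNT and 56.3, 60.0 and 52.8 CPM in siNT_E2. The fold change there was 0.02 ± 0.05 (adjusted p = 0.78), with a 95% interval of -0.08 to 0.11. The E2 effect on MYC in HCC1428 differed from that in MM134 by 2.69 ± 0.11 (adjusted p = 5.0e-23) and from that in MM330 by 5.44 ± 0.18 (adjusted p = 2.5e-25).

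Knockdown of the estrogen receptor took MYC close to the level without hormone in both lobular lines. The siER_E2 libraries of MM134 stood at 17.8, 16.8 and 18.8 CPM, 5.48-fold below siNT_E2 (-2.45 ± 0.06, adjusted p = 1.8e-18), and overlapped siNT, above which they lay by 0.23 ± 0.07 (adjusted p = 0.02). Those of MM330 stood at 0.516, 0.277 and 0.127 CPM, from 14, 8 and 4 counts (-6.11 ± 0.20 against siNT_E2, adjusted p = 6.9e-13). Against siNT, the MM330 value was -0.65 ± 0.34 (adjusted p = 0.21, 95% interval -1.32 to 0.01). In HCC1428, where E2 had no detectable effect on MYC, siER_E2 libraries at 39.3, 40.2 and 38.4 CPM lay below both siNT_E2 (-0.55 ± 0.05, adjusted p = 2.2e-08) and siNT (-0.53 ± 0.05, adjusted p = 2.2e-07).

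Knockdown of FOXA1 or MDC1 left MYC far above its hormone-free level in the lobular lines. In MM134, siFOXA1_E2 libraries stood at 58.2, 58.5 and 57.1 CPM and siMDC1_E2 libraries at 65.0, 64.9 and 67.3 CPM. These values were below siNT_E2 by 0.77 ± 0.05 and 0.61 ± 0.05 on the log2 scale and above siNT by 1.92 ± 0.07 and 2.08 ± 0.07, all called. The ESR1 falls of 2.29 and 2.16 in these MM134 groups moved with the MYC values, and their part in them was not tested. In MM330, siFOXA1_E2 libraries held 14.9, 14.9 and 18.1 CPM, which was 5.07 ± 0.19 above siNT and -0.39 ± 0.13 from siNT_E2 (adjusted p = 0.018). Leaving out siFOXA1_E2 replicate 2 (adjusted p = 0.071) or either of siNT_E2 replicates 1 and 3 (0.057 and 0.064) ended that last call. The siMDC1_E2 libraries of MM330 held 25.8, 24.4 and 22.1 CPM, all above those of siNT_E2, and the difference of 0.20 ± 0.12 was not called (adjusted p = 0.31, 95% interval -0.04 to 0.44). In HCC1428, MYC was slightly higher with either siRNA, by 0.17 ± 0.05 in siFOXA1_E2 (adjusted p = 0.0058) and 0.15 ± 0.05 in siMDC1_E2 (adjusted p = 0.025). With the replicate number as a block, which in effect leaves out siNT_E2 replicate 4 of HCC1428, neither passed (adjusted p = 0.075 and 0.20).

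Across the 15 groups, mean MYC levels ran from 0.307 ± 0.196 CPM (SD, n = 3) in MM330 siER_E2 to 99.3 ± 1.23 CPM (SD, n = 3) in MM134 siNT_E2. The next above the lowest was MM330 siNT at 0.476 ± 0.057 CPM, whose libraries overlapped it. Between 15.3 and 24.1 CPM lay MM134 siNT, MM330 siFOXA1_E2, MM134 siER_E2, MM330 siNT_E2 and MM330 siMDC1_E2, in that order. HCC1428 siER_E2 stood alone at 39.3 ± 0.913 CPM. The remaining groups before the highest lay close together, from 56.2 CPM in HCC1428 siNT to 65.7 CPM in MM134 siMDC1_E2. The 5 groups of HCC1428 thus spanned a narrow part of the range that the lobular lines covered.

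**Figure D1:**
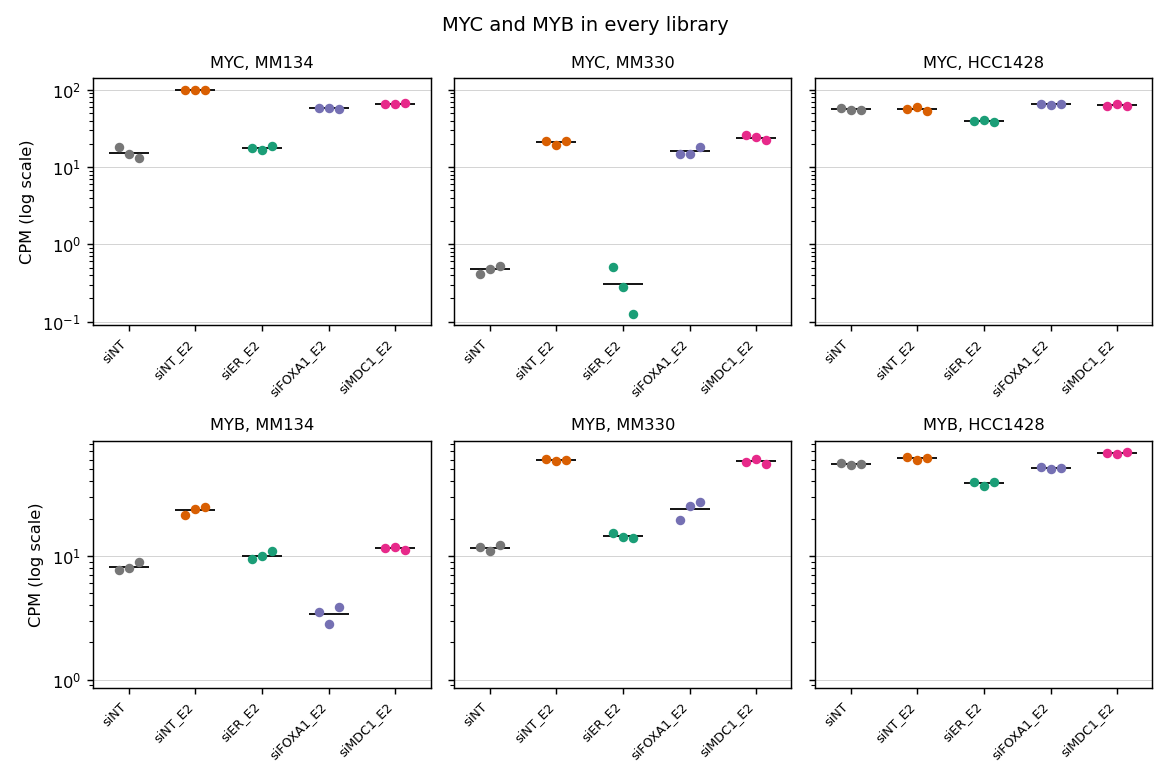
MYC (top) and MYB (bottom) in CPM on a log scale, 1 point per library and a line at the mean of 3, for the 5 groups of each line. In MM330, MYC sits at or below 0.531 CPM in siNT and siER_E2 and at or above 14.9 CPM in the other groups, whereas in HCC1428 all points lie between 38.4 and 66.1 CPM.

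MYB, like MYC, rose with E2 chiefly in the lobular lines, and in MM134 FOXA1 knockdown took it below its hormone-free level. In MM134, MYB stood at 7.69, 7.96 and 8.96 CPM in siNT and 21.4, 24.1 and 24.7 CPM in siNT_E2 (a 2.83-fold rise, adjusted p = 1.0e-11). In MM330 it rose 5.19-fold, from 11.7, 10.9 and 12.2 CPM to 60.1, 58.7 and 59.1 CPM (2.38 ± 0.08, adjusted p = 1.3e-12). HCC1428 already held 55.8, 54.3 and 55.3 CPM without hormone, which was higher than MM330 by 2.25 and MM134 by 2.75 on the log2 scale. The E2 effect in HCC1428 was 0.17 ± 0.04 (adjusted p = 0.001), and that call was lost when libraries with the higher pseudogene share were left out (adjusted p = 0.17).

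The lowest MYB level of all 15 groups was in MM134 with FOXA1 knocked down. The siFOXA1_E2 libraries of MM134 held 3.51, 2.83 and 3.85 CPM, 6.82-fold below siNT_E2 (-2.77 ± 0.10, adjusted p = 9.5e-16) and also below every siNT library (-1.27 ± 0.11, adjusted p = 1.5e-09). In MM330 the same knockdown left 19.4, 25.1 and 27.2 CPM, lower than siNT_E2 by 1.31 ± 0.08 on the log2 scale and still higher than siNT by 1.07 ± 0.08. The MYB change in MM134 exceeded that in MM330 by -1.48 ± 0.12 (adjusted p = 4.2e-13). With ESR1 knocked down, MYB fell by 1.19 ± 0.09 in MM134, by 2.03 ± 0.08 in MM330 and by 0.71 ± 0.04 in HCC1428. With MDC1 knocked down it fell by 1.04 ± 0.09 in MM134, to 11.6, 11.7 and 11.2 CPM. In MM330 it was at 57.8, 60.1 and 55.7 CPM, with a difference of -0.04 ± 0.07 (adjusted p = 0.80). These MDC1 effects on MYB differed between MM134 and MM330 by -0.99 ± 0.10 (adjusted p = 1.0e-09).

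CCND3 and CDK4, a cyclin and its kinase partner of early G1, rose with E2 in every line, and the rise in HCC1428 exceeded that in either lobular line by the test of the difference. CCND3 went from 46.3, 46.4 and 41.9 CPM to 80.5, 86.1 and 87.4 CPM in HCC1428 (0.93 ± 0.06, adjusted p = 4.4e-11), and rose by 0.34 ± 0.05 in MM134 and 0.62 ± 0.06 in MM330. CDK4 went from 94.4, 90.2 and 80.3 CPM to 156, 165 and 171 CPM in HCC1428 (0.91 ± 0.05, adjusted p = 2.4e-11), and rose by 0.56 ± 0.04 in MM134 and 0.31 ± 0.04 in MM330. No library overlapped between siNT and siNT_E2 for either gene in any line, and the share of all genes without such overlap was not counted. FOXA1 knockdown moved CCND3 in opposite directions, up by 0.21 ± 0.05 in MM134 (71.5, 75.6 and 75.0 CPM) and down by 1.11 ± 0.07 in MM330 (20.4, 20.1 and 17.7 CPM) and by 0.64 ± 0.06 in HCC1428. MDC1 knockdown raised CDK4 in MM330 to 122, 122 and 118 CPM, above the 87.4, 96.8 and 92.8 CPM of siNT_E2 (0.38 ± 0.04, adjusted p = 3.4e-06). CDK4 was the only one of the 10 genes called in that comparison. With ESR1 knocked down, CDK4 fell by 0.50 ± 0.04 in MM134 (84.0, 81.8 and 86.2 CPM) and by 0.69 ± 0.05 in HCC1428 (104, 103 and 106 CPM), and stood at -0.10 ± 0.04 in MM330 (adjusted p = 0.067). CCND3 fell by 0.58 ± 0.05 in HCC1428 with ESR1 knocked down, to 55.6, 56.7 and 60.7 CPM, and did not pass in MM134 (-0.05 ± 0.05, adjusted p = 0.46).

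The exons of CDK4 overlap those of TSPAN31 on the other strand over 1369 bases and those of CCNE2 overlap INTS8 over 1629 bases. The strand setting of the counting is not given in the sources used here, so reads in these stretches could be split or lost. With E2, TSPAN31 fell by 0.25, 0.35 and 0.76 on the log2 scale in MM134, MM330 and HCC1428, the direction opposite to CDK4. In siMDC1_E2 against siNT_E2, TSPAN31 stood at -0.75 in MM330, where CDK4 rose, and at -0.25 in MM134, where CDK4 was slightly lower. In HCC1428 it was not called (0.14, adjusted p = 0.094). The part of the overlap in the CDK4 values was not tested. INTS8 rose by 0.36 ± 0.04 in HCC1428, fell by 0.15 ± 0.04 in MM134 and stood at -0.07 ± 0.04 in MM330 (adjusted p = 0.21), while CCNE2 rose in all 3 lines. CDK2 overlaps AC025162.1 over 565 bases and PMEL over 89 bases, MYB overlaps MYB-AS1 over 103 bases, CCND3 overlaps AL513008.1 over 24 bases and CCNE2 overlaps AC087752.4 over 4 bases.

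CCNE2 and CCNE1 encode the E-type cyclins that activate CDK2. CCNE2 rose 6.64-fold with E2 in HCC1428, from 19.3, 18.2 and 20.4 CPM to 127, 122 and 131 CPM (2.73 ± 0.05, adjusted p = 3.7e-18). In MM330 it went from 25.7, 26.4 and 29.5 CPM to 49.0, 47.1 and 52.6 CPM (0.89 ± 0.19, adjusted p = 0.0016). In MM134 it went only from 32.9, 35.2 and 32.7 CPM to 39.8, 37.5 and 35.6 CPM (0.15 ± 0.06, adjusted p = 0.024). Leaving out siNT replicate 1 or 3, or siNT_E2 replicate 1 or 2, ended the MM134 call, at adjusted p of 0.077, 0.088, 0.15 and 0.058 in turn. The E2 effect on CCNE2 was smaller than in HCC1428 by 2.55 ± 0.16 in MM134 (adjusted p = 7.4e-17) and by 1.85 ± 0.16 in MM330 (adjusted p = 1.9e-12).

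CCNE1 rose modestly with E2, from 17.1, 16.2 and 15.7 CPM to 22.2, 25.1 and 22.5 CPM in HCC1428 (0.52 ± 0.07, adjusted p = 7.5e-06) and by 0.35 ± 0.10 in MM134 (adjusted p = 0.0055). The MM330 value was 0.25 ± 0.25 (adjusted p = 0.57, 95% interval -0.25 to 0.74). With ESR1 knocked down, CCNE1 rose above siNT_E2 in both lobular lines, to 13.1, 13.95 and 11.6 CPM in MM134 (0.52 ± 0.10, adjusted p = 7.3e-05) and to 5.82, 3.73 and 4.41 CPM in MM330 (0.81 ± 0.25, adjusted p = 0.019). The MM330 value did not pass when siER_E2 replicate 1 (adjusted p = 0.11) or either of siNT_E2 replicates 2 and 3 (0.061 and 0.068) was left out. In HCC1428 it fell by 0.23 ± 0.07 (adjusted p = 0.014), a call lost without the libraries of higher pseudogene share (adjusted p = 0.12). With FOXA1 knocked down, CCNE1 fell in MM330 to 1.45, 1.38 and 0.666 CPM (-1.21 ± 0.27, adjusted p = 0.0012) and in HCC1428 by 0.42 ± 0.07. The CCNE1 response to ESR1 knockdown differed from HCC1428 by 0.70 ± 0.17 in MM134 (adjusted p = 0.0017) and by 1.00 ± 0.19 in MM330 (adjusted p = 8.2e-05).

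CDK2, the kinase partner of cyclin E, rose with E2 by 1.59 ± 0.05 in HCC1428 (58.1, 55.3 and 49.6 CPM to 161, 162 and 164 CPM), by 0.82 ± 0.07 in MM330 and by 0.29 ± 0.03 in MM134, all called. In MM134 it was higher still in every knockdown. It reached 139, 146 and 145 CPM in siFOXA1_E2 (0.95 ± 0.03 above siNT_E2, adjusted p = 2.0e-16), 94.0, 93.1 and 97.4 CPM in siMDC1_E2 (0.34 ± 0.03) and 81.7, 82.0 and 82.2 CPM in siER_E2 (0.16 ± 0.03). In HCC1428 the same 3 knockdowns lowered CDK2, by 0.58 ± 0.05, 0.39 ± 0.05 and 0.96 ± 0.05. The difference between MM134 and HCC1428 was 1.49 ± 0.07 for FOXA1 (adjusted p = 1.8e-19), 0.74 ± 0.07 for MDC1 and 1.06 ± 0.08 for ESR1. In MM330, CDK2 fell by 0.60 ± 0.07 in siFOXA1_E2 and by 0.28 ± 0.07 in siER_E2.

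E2F1 and CDC25A rose with E2 in all lines, and in HCC1428 the rise exceeded 7-fold. E2F1 went from 35.4, 29.2 and 32.1 CPM to 231, 243 and 231 CPM in HCC1428, a 7.38-fold rise (2.88 ± 0.07, adjusted p = 3.8e-17). In MM134 it went from 98.0, 105 and 97.6 CPM to 173, 165 and 172 CPM (0.75 ± 0.04, adjusted p = 1.3e-13), and in MM330 from 24.8, 23.1 and 24.4 CPM to 46.9, 52.4 and 45.8 CPM (1.02 ± 0.18, adjusted p = 0.00035). Without hormone, MM134 thus already held more E2F1 RNA than the other lines, by 1.64 against HCC1428 and 2.06 against MM330 on the log2 scale. The rises in MM134 and MM330 were not told apart by the test (-0.25 ± 0.14, adjusted p = 0.24, 95% interval -0.53 to 0.04). CDC25A rose by 2.93 ± 0.09 in HCC1428 (8.15, 6.89 and 6.77 CPM to 53.9, 54.8 and 55.7 CPM), by 1.23 ± 0.10 in MM330 and by 0.95 ± 0.04 in MM134 (50.5, 53.5 and 51.2 CPM to 99.1, 101 and 102 CPM). In bulk RNA, a larger share of cells in a phase and more RNA per cell cannot be told apart.

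FOXA1 knockdown in MM330 took E2F1, CCNE2 and CDC25A below the level without hormone, while MYC stood 5.07 above its siNT level on the log2 scale in the same libraries. E2F1 stood at 17.99, 7.58 and 9.42 CPM (-2.07 ± 0.20 against siNT_E2, adjusted p = 1.6e-07, and -1.05 ± 0.20 against siNT, adjusted p = 0.00036). CCNE2 stood at 15.7, 5.86 and 8.57 CPM (-2.32 ± 0.21 against siNT_E2 and -1.43 ± 0.21 against siNT), and CDC25A at 5.33, 3.53 and 4.24 CPM (-2.80 ± 0.11 and -1.57 ± 0.11). All 3 genes lay below every siNT library. Replicate 1 was the highest of the 3 for each of these genes, and without it the changes against siNT_E2 were -2.52 for E2F1, -2.78 for CCNE2 and -2.98 for CDC25A. In MM330 siMDC1_E2 the 3 genes did not pass the test, with E2F1 at 52.3, 54.8 and 53.4 CPM (0.14 ± 0.17, 95% interval -0.20 to 0.48).

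In HCC1428, knockdown of ESR1 or FOXA1 removed most of the rise of these genes without returning them to the hormone-free level. ESR1 RNA itself fell 2.01-fold in siER_E2 of HCC1428, against 8.71-fold in MM134 and 12.8-fold in MM330. The part of this weaker knockdown in the incomplete return in siER_E2 was not tested. E2F1 stood at 69.0, 64.6 and 77.5 CPM in siER_E2 and at 65.0, 68.6 and 64.5 CPM in siFOXA1_E2, 3.41-fold and 3.65-fold below siNT_E2 and 2.16-fold and 2.02-fold above siNT, all called. CCNE2 and CDC25A followed, with 3.21-fold and 3.89-fold falls in siER_E2 and 3.58-fold and 4.18-fold falls in siFOXA1_E2. MDC1 knockdown lowered E2F1 by 0.76 ± 0.06, CCNE2 by 0.60 ± 0.04 and CDC25A by 0.56 ± 0.08. In MM134 the 3 knockdowns lowered E2F1 by 0.28 ± 0.04 (ESR1), 0.27 ± 0.04 (FOXA1) and 0.52 ± 0.04 (MDC1). CCNE2 fell there by 0.28 ± 0.06 with ESR1 and by 0.26 ± 0.06 with MDC1 knocked down, and stood at 0.09 ± 0.05 with FOXA1 knocked down (40.1, 39.8 and 39.3 CPM, adjusted p = 0.19). CDC25A fell in MM134, by 1.00 ± 0.04, 1.21 ± 0.04 and 0.62 ± 0.04, to 51.9, 48.7 and 47.4 CPM with ESR1 and 41.1, 44.0 and 44.1 CPM with FOXA1 knocked down. In MM330, ESR1 knockdown lowered CDC25A by 0.70 ± 0.09, to 17.7, 20.8 and 17.4 CPM. E2F1 at 39.4, 42.3 and 37.1 CPM lay below all siNT_E2 libraries there but did not pass (-0.29 ± 0.17, adjusted p = 0.23), nor did CCNE2 at 35.8, 37.2 and 34.0 CPM (-0.48 ± 0.18, adjusted p = 0.054). Both passed when only the 6 compared libraries were fitted (adjusted p = 0.0041 for E2F1 and 9.0e-05 for CCNE2).

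**Figure D2:**
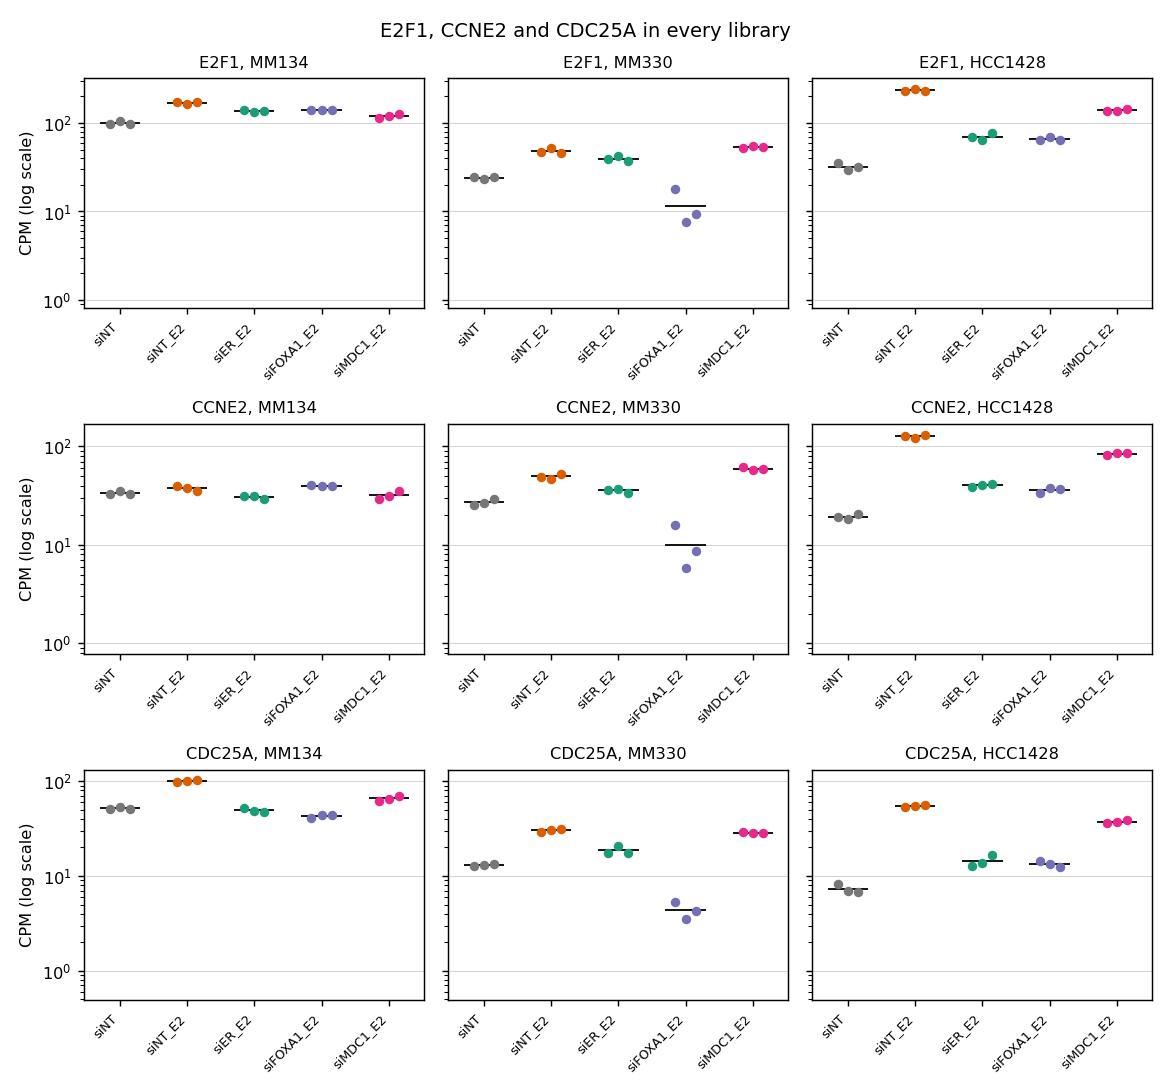
E2F1, CCNE2 and CDC25A in CPM on a log scale, 1 point per library and a line at the mean of 3. In MM330 the siFOXA1_E2 points lie below all siNT points for each gene, and in HCC1428 the siER_E2 and siFOXA1_E2 points lie between those of siNT and siNT_E2.

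CDKN1B, the inhibitor, was lower with E2 in the lobular lines. It went from 185, 180.1 and 178 CPM to 164, 150.2 and 154 CPM in MM134 (-0.22 ± 0.04, adjusted p = 1.7e-05) and from 158, 142 and 162 CPM to 105, 113 and 114 CPM in MM330 (-0.46 ± 0.04, adjusted p = 6.8e-07). In HCC1428 both groups overlapped, from 95.04 to 106 CPM (-0.03 ± 0.04, adjusted p = 0.66, 95% interval -0.11 to 0.06). The E2 effect in MM330 differed from that in HCC1428 (-0.43 ± 0.07, adjusted p = 9.7e-06), and that in MM134 did not pass (-0.17 ± 0.07, adjusted p = 0.082). Each knockdown raised CDKN1B in MM134, by 0.31, 0.28 and 0.39 for ESR1, FOXA1 and MDC1 (SE 0.04 each). In MM330, FOXA1 knockdown raised it by 0.50 ± 0.04, to 145, 161 and 164 CPM, and ESR1 knockdown by 0.20 ± 0.04. No knockdown comparison against siNT_E2 or siNT called CDKN1B in HCC1428.

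Counts of called genes are read against a high background, since 20.2 to 57.2% of all genes were called in the comparisons with siNT or siNT_E2. With E2, the called genes of the 10 were 9 higher and 1 lower in MM134 (27.2% and 27.2% of all tested genes, 54.4% in all), 8 higher and 1 lower in MM330 (13.7% and 12.6% of all tested genes, 26.3% in all), and 8 higher and 0 lower in HCC1428 (29.1% and 25.7% of all tested genes, 54.8% in all). Against siNT_E2, ESR1 knockdown left 3 higher and 6 lower in MM134 (29.3% and 27.9% of all tested genes, 57.2% in all), 2 higher and 5 lower in MM330 (15.1% and 17.4% of all tested genes, 32.5% in all), and 0 higher and 9 lower in HCC1428 (22.5% and 28.7% of all tested genes, 51.2% in all). FOXA1 knockdown left 3 higher and 5 lower in MM134 (27.9% and 28.5% of all tested genes, 56.3% in all), 1 higher and 9 lower in MM330 (24.4% and 24.6% of all tested genes, 49% in all), and 1 higher and 8 lower in HCC1428 (24.1% and 29.5% of all tested genes, 53.6% in all). MDC1 knockdown left 3 higher and 6 lower in MM134 (25.4% and 25% of all tested genes, 50.3% in all), 1 higher and 0 lower in MM330 (10.4% and 10.4% of all tested genes, 20.8% in all), and 3 higher and 6 lower in HCC1428 (13.2% and 15.9% of all tested genes, 29.1% in all). The shares stand for the higher and the lower calls in that order. In MM134 and HCC1428 about as large a share of all genes changed with E2 or the ESR1 siRNA as did not, so a count of called genes there says little of these 10 by itself. In MM134 siMDC1_E2 the small changes of CCNE1 (0.25) and CDK4 (-0.10) lost their call without single libraries, with adjusted p up to 0.22 and 0.15. In HCC1428 siMDC1_E2 the rises of MYC (adjusted p up to 0.20), MYB and CCNE1 lost theirs under several settings.

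**Figure D3:**
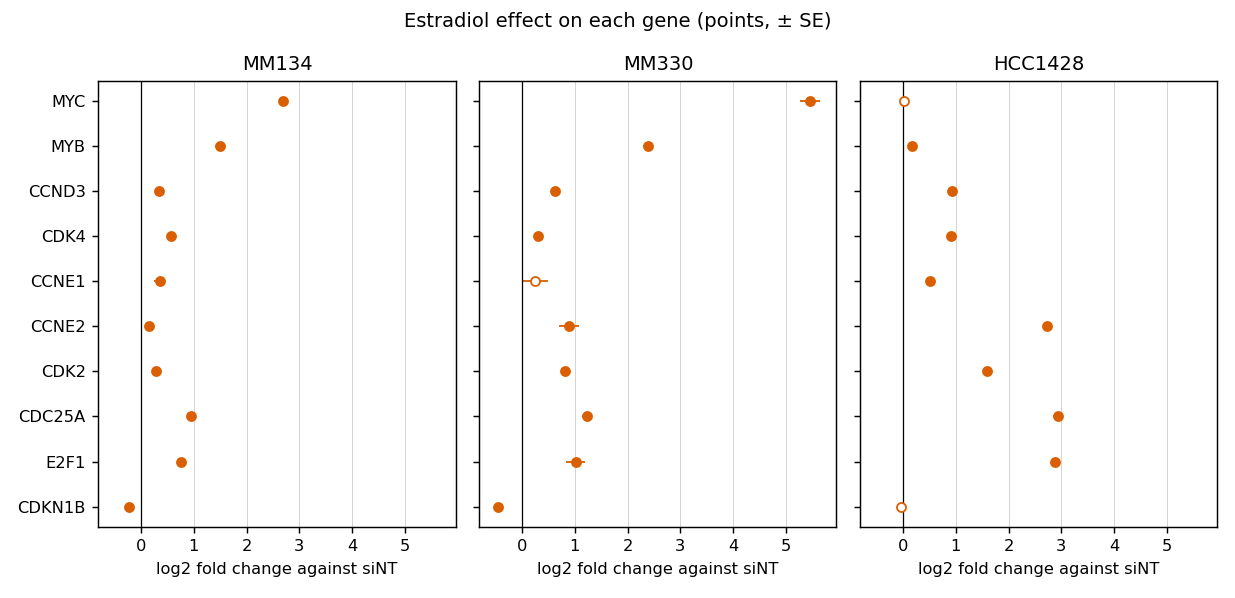
Log2 fold change of each gene in siNT_E2 against siNT, with SE, in the 3 lines. Filled points are called at an adjusted p below 0.05 and open points are not. MYC and MYB lie farthest right in MM134 and MM330, and CDC25A, E2F1 and CCNE2 in HCC1428.

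**Figure D4:**
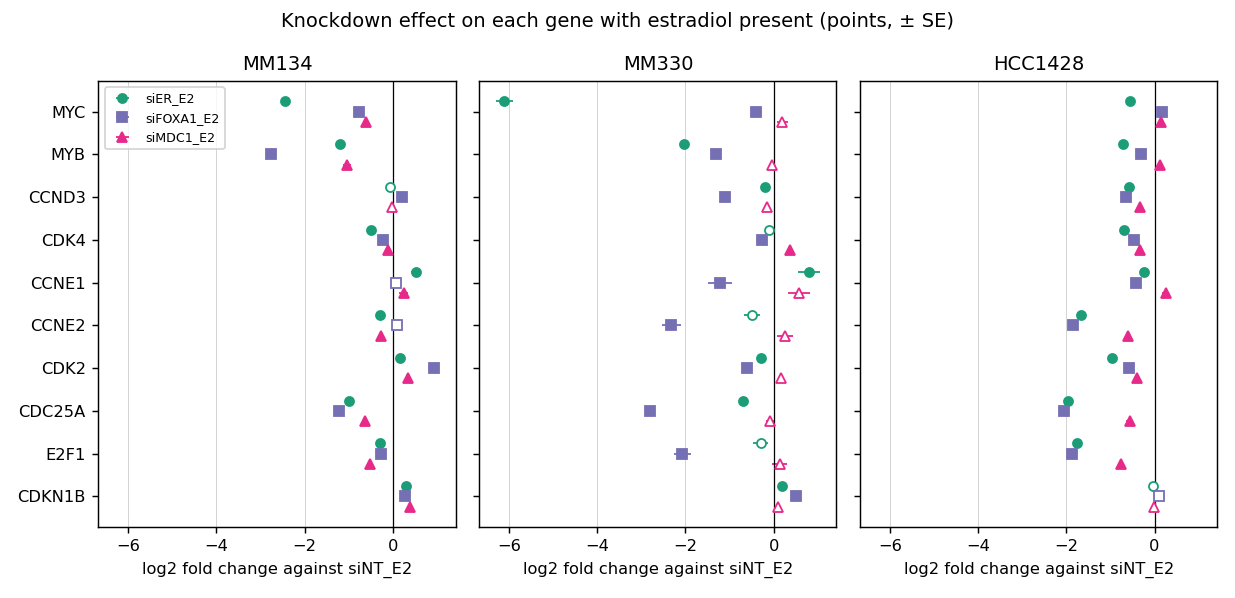
Log2 fold change of each gene in the 3 knockdown groups against siNT_E2, with SE, filled where called. MYC at -6.11 in siER_E2 of MM330 is the lowest point, and CDK2 lies right of 0 in MM134 and left of 0 in HCC1428 for all 3 knockdowns.

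Set against siNT, the knockdown groups differ by both E2 and the targeting siRNA, with control libraries shared between these comparisons. No group had a targeting siRNA without hormone, so E2 response left over and hormone-independent knockdown effects cannot be told apart. With ESR1 knocked down, the called genes of the 10 were 6 higher and 0 lower in MM134 (17.2% and 15.2% of all tested genes, 32.3% in all), 7 higher and 1 lower in MM330 (8.66% and 11.5% of all tested genes, 20.2% in all), and 7 higher and 2 lower in HCC1428 (11.7% and 9.5% of all tested genes, 21.2% in all). Those above siNT in MM134 included CCNE1 (0.87 ± 0.10), E2F1 (0.47 ± 0.04) and MYC (0.23 ± 0.07, with overlapping libraries). In MM330, E2F1 was 0.73 ± 0.18 and CDC25A 0.53 ± 0.10 above siNT, where MYC did not pass the test. The 2 genes below siNT in HCC1428 were MYC and MYB (-0.54 ± 0.04). With FOXA1 knocked down, the calls were 7 higher and 2 lower in MM134 (28.9% and 27.9% of all tested genes, 56.8% in all), 3 higher and 5 lower in MM330 (23.1% and 23.8% of all tested genes, 46.9% in all), and 7 higher and 1 lower in HCC1428 (25.1% and 23.4% of all tested genes, 48.5% in all). With MDC1 knocked down, they were 9 higher and 0 lower in MM134 (26% and 23.2% of all tested genes, 49.1% in all), 9 higher and 1 lower in MM330 (17.9% and 17.1% of all tested genes, 34.9% in all), and 9 higher and 0 lower in HCC1428 (26.2% and 22.2% of all tested genes, 48.4% in all). The 9 genes higher in MM330 with MDC1 knocked down were all of the 10 but CDKN1B, which stood at -0.35 ± 0.04.

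**Figure D5:**
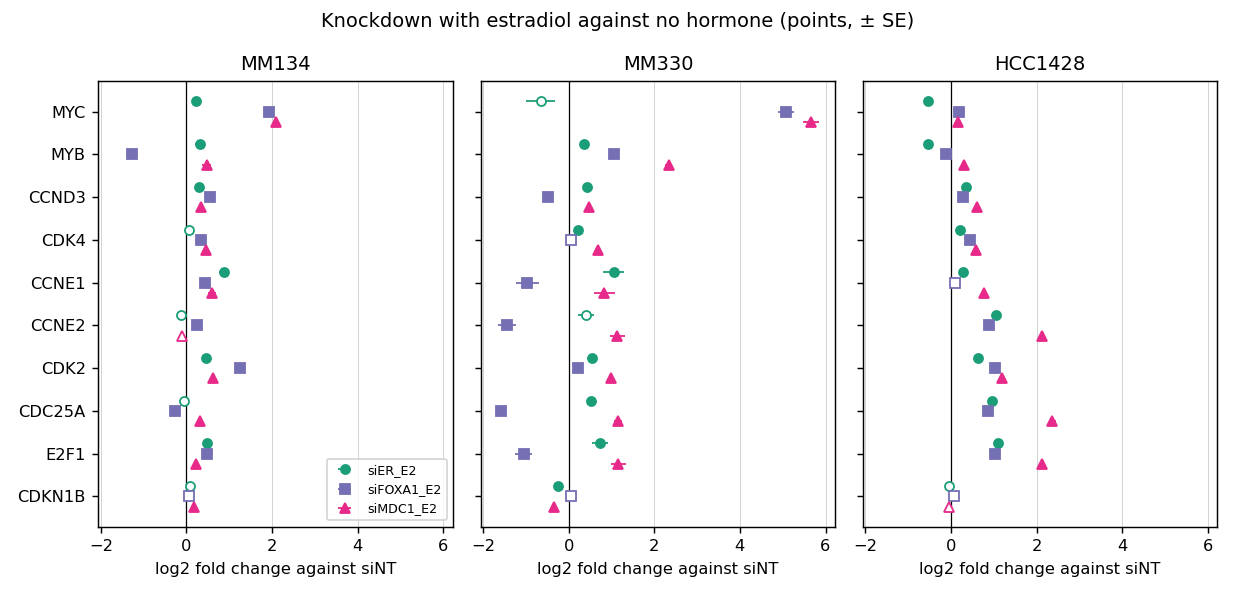
Log2 fold change of each gene in the 3 knockdown groups with E2 against siNT without hormone, with SE, filled where called. In MM330, MYC lies at 5.07 for siFOXA1_E2 while E2F1, CCNE2 and CDC25A lie at -1.05 to -1.57.

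The E2F target list, 25 genes of DNA replication and S phase, rose with E2 in all 3 lines. This list and those below were chosen with earlier results of these data known, so their directions support nothing by themselves. In MM134, 24 of 25 were called higher and 0 lower (27.2% of all tested genes higher, list median 0.48, all genes -0.03). In MM330, 25 were higher and 0 lower (13.7% higher, median 0.85, all genes 0), and in HCC1428 likewise 25 and 0 (29.1% higher, median 2.46, all genes -0.03). RRM2, a subunit of ribonucleotide reductase, rose by 3.44 ± 0.06 and UHRF1, a maintenance factor of DNA methylation, by 3.40 ± 0.07 in HCC1428. MCM10, a replication initiation factor, rose by 0.87 ± 0.04 in MM134 and 1.20 ± 0.16 in MM330.

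Against siNT_E2, FOXA1 knockdown lowered 25 of these 25 genes in MM330 (24.6% of all tested genes lower, median -1.92), with CDC6, which loads the replicative helicase, at -2.79 ± 0.19. It lowered 25 in HCC1428 (29.5% lower, median -1.80), and lowered 22 and raised 2 in MM134 (28.5% lower, 27.9% higher, median -0.51). ESR1 knockdown lowered 25 in MM134 (27.9% lower, median -0.46), 25 in HCC1428 (28.7% lower, median -1.64) and 12 in MM330 (17.4% lower, median -0.39), and raised 0 in each. MDC1 knockdown lowered 25 in HCC1428 (15.9% lower, median -0.46), lowered 16 and raised 4 in MM134 (25% lower, 25.4% higher, median -0.17), and raised 8 and lowered 0 in MM330 (10.4% higher, median 0.26). Against siNT, 25 were lower in MM330 siFOXA1_E2 (23.8% of all tested genes lower, median -1.11), where E2F1 was lower too. Against siNT, the ESR1 and FOXA1 groups of MM134 left the list median near 0 while E2F1 was higher. E2F1 was 0.47 above siNT in siER_E2, where 10 of 25 were higher and 5 lower (17.2% and 15.2%, median 0.02), and 0.48 above it in siFOXA1_E2, where 11 were higher and 9 lower (28.9% and 27.9%, median 0.03).

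The MYC target list, 25 genes of ribosome synthesis and metabolism, had a higher median with E2 in MM134 and HCC1428 than in MM330. In MM134, E2 raised 25 of 25 (27.2% of all tested genes higher, median 0.76), with NME1, a nucleoside diphosphate kinase, at 1.41 ± 0.06 and BOP1, a ribosome assembly factor, at 1.31 ± 0.04. In MM330, where MYC rose 44.0-fold, 7 rose and 3 fell (13.7% and 12.6%, median 0.11), among them ODC1, the first enzyme of polyamine synthesis, at -0.68 ± 0.05. In HCC1428, where MYC did not pass the test, 20 rose and 1 fell (29.1% and 25.7%, median 0.45), with NOP56, a nucleolar protein, at 1.13 ± 0.06. The difference between MM134 and MM330 in the E2 effect was called higher for 23 of 25 and lower for 0, against 13.9% of all tested genes higher and 12.3% lower. ESR1 knockdown lowered 24 of 25 in MM134 (27.9% lower, median -0.64) and 20 of 25 in HCC1428 (28.7% lower, median -0.33), while in MM330 5 fell and 3 rose (17.4% and 15.1%, median 0.02). FOXA1 knockdown gave medians of -0.35, -0.13 and -0.20 in MM134, MM330 and HCC1428, and MDC1 knockdown gave -0.37, 0.12 and -0.08.

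Of 45 other genes of the G1 to S network, 44 were tested. E2 raised 20 and lowered 14 in MM134 (27.2% of all tested genes higher and 27.2% lower, list median 0.08). It raised 21 and lowered 6 in MM330 (13.7% and 12.6%, median 0.14), and raised 25 and lowered 10 in HCC1428 (29.1% and 25.7%, median 0.38). CCND1, the D-type cyclin, rose with E2 by 1.05 ± 0.02 in MM134 and 0.87 ± 0.03 in HCC1428, and stood at -0.03 (adjusted p = 0.83) in MM330. CDKN1A (p21), a CDK inhibitor, fell by 0.98 ± 0.03 in MM134 and rose by 1.99 ± 0.07 in HCC1428 and 0.41 in MM330. MYBL2, a partner of the S-phase and mitotic programme and an E2F target, rose by 0.81, 1.38 and 2.95 in MM134, MM330 and HCC1428. CDK6 fell by 1.21, 0.74 and 0.41. MAX, the binding partner of MYC, and RB1, the retinoblastoma gene, did not pass the test in MM134, at 0.09 (adjusted p = 0.082) and -0.03 (adjusted p = 0.64). RB1 rose by 0.30 ± 0.05 in MM330 and 0.63 ± 0.07 in HCC1428. MAX fell by 0.11 ± 0.04 in HCC1428 (adjusted p = 0.013) and stood at -0.08 ± 0.05 in MM330 (adjusted p = 0.27). Among the extremes were MYBL1 (1.18 ± 0.04) and CDKN2B (-1.73 ± 0.06), another CDK inhibitor, in MM134, MYBL1 (1.99 ± 0.17) and MXD4 (-0.71 ± 0.06), a MAX-binding antagonist of MYC, in MM330, and E2F2 (3.23 ± 0.08) and E2F5 (-1.12 ± 0.10) in HCC1428.

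The lines differed in the level of these genes before any hormone. Against HCC1428 in siNT, all 10 genes were called in MM134 and in MM330, where 75.6% and 73% of all genes were, and 9 of 10 between MM134 and MM330 (72.4%). Relative to HCC1428, MYC stood at -1.88 in MM134 and -6.87 in MM330 on the log2 scale, and CCNE1 at -1.20 and -2.85. CDC25A was higher by 2.83 in MM134 and 0.84 in MM330, and CDKN1B by 0.82 and 0.58. On a scale of CPM per kilobase of merged exons, CDKN1B was the most abundant of the 10 in siNT of each line (64.4, 54.7 and 36.4). With E2, E2F1 was the most abundant in MM134 (67.9) and HCC1428 (94.0), and CDKN1B in MM330 (39.3).

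As a description, gene patterns were compared over the 15 group means, as log2 CPM centred within each line, among 9439 genes. The groups share a line's libraries, scaling and controls. Values were not rescaled within a line, so a line with wider changes weighs more, as MM330 does for MYC. CCNE2 and E2F1 correlated at 0.98, E2F1 and CDC25A at 0.96, and CCNE2 and CDC25A at 0.95. MYC correlated with MYB at 0.69 and with E2F1 at 0.10, and CDKN1B correlated negatively with each of the other 9 genes, from -0.25 (CDK2) to -0.65 (CDC25A). The genes most like MYC were RASGRP1 (0.967), C5AR2 (0.955) and IGF1R (0.941), and those most like E2F1 were E2F7 (0.988), EXO1 (0.986) and E2F2 (0.986).

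The knockdowns were also compared directly within a line. Of all tested genes the calls took 51.3% (siFOXA1_E2 against siER_E2), 45.6% (siMDC1_E2 against siER_E2) and 49.8% (siMDC1_E2 against siFOXA1_E2) in MM134, 45.9%, 30.6% and 48.8% in MM330, and 42.9%, 41.1% and 45.4% in HCC1428. In MM134, MYC was higher in siMDC1_E2 than in siFOXA1_E2 by 0.16 ± 0.06 (adjusted p = 0.021) and than in siER_E2 by 1.85 ± 0.06, and E2F1 in siFOXA1_E2 and siER_E2 differed by 0.01 (adjusted p = 0.84, 95% interval -0.06 to 0.08). In HCC1428, E2F1 in siFOXA1_E2 and siER_E2 differed by -0.10 (adjusted p = 0.24, 95% interval -0.22 to 0.03) and CDC25A by -0.10 (adjusted p = 0.39, 95% interval -0.28 to 0.08), whereas MYC was higher in siFOXA1_E2 by 0.72 ± 0.05 (adjusted p = 6.0e-10). In MM330, MYC was higher in siMDC1_E2 than in siFOXA1_E2 by 0.59 and higher than in siER_E2 by 6.31. ESR1 RNA itself was lowered in each of these groups, most in siER_E2.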

How the data were processed

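Polyadenylated RNA was sequenced on a NovaSeq from 45 libraries. The authors deposited 1 table of raw read counts per gene symbol. Alignment used STAR 2.6.0a on GRCh38, per the submitters' processing notes. The counting tool, its annotation and its strand setting are not given in the sources used here. Of 57353 symbols, 16974 had no count and 27 had been turned into dates.

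The deposited counts were fitted with edgeR 4.0.16 (R 4.3.3): TMM scaling, filterByExpr by group, quasi-likelihood test, Benjamini-Hochberg adjustment over all genes, threshold 0.05. Each line's 15 libraries were fitted together (17744, 17834 and 18286 genes), and differences between lines came from a fit of all 45. The procedure was checked on simulated counts. Depth was 21043426 to 36738812 counts per library. The 95% intervals come from the SE of the quasi-likelihood fit, which covers the spread between libraries.

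Alternatives were RLE scaling, no filter, a replicate block, each library left out, DESeq2 1.42.0, limma-voom (limma 3.58.1), and fits of only the 6 libraries compared. The fit without libraries of higher pseudogene share was chosen after seeing the data. The 10 genes and the lists were chosen with earlier results of these data known, and so support nothing by their direction. All 10 genes were named in every comparison. From each list, the 2 called genes with the highest and the 2 with the lowest fold change could be named, at 5 CPM or more in either group, besides 6 fixed partners, the knockdown targets and the 3 genes most like MYC and E2F1. Replicate numbers were checked for pairing by asking that 3 same-numbered pairs all correlate above 0.1, which 0 of 12 comparisons met. The HCC1428 comparisons held 2 such pairs each, because siNT_E2 is numbered differently there, and could not meet it. In HCC1428 siNT_E2 against siNT both pairs lay above 0.1 (0.428 and 0.471), and pairs of unlike number ran from -0.648 to 0.495. The positive pairs there were those of libraries with a like pseudogene share, whatever their number.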

Additional observations from a re-analysis of the deposited data

Results flagged for a closer look

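The effect of E2 differed between lines, by the test of the difference itself in edgeR, for 8 of the 10 genes between MM134 and HCC1428 (background 26.5% of all genes), 9 between MM330 and HCC1428 (28.3%) and 7 between MM134 and MM330 (26.2%). The effect of ESR1 knockdown differed for 9, 10 and 5 genes in the same order of pairs (24.5%, 25.3% and 25.4%), that of FOXA1 knockdown for 9, 7 and 9 (30.5%, 22.2% and 29.1%), and that of MDC1 knockdown for 6, 5 and 7 (18.6%, 13.8% and 20.8%). The ESR1 siRNA lowered ESR1 RNA less in HCC1428 (2.01-fold) than in MM134 (8.71-fold) and MM330 (12.8-fold). The part of this unequal knockdown in the line differences under ESR1 knockdown was not tested.

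Several genes were called in opposite directions in 2 lines under the same knockdown, the difference being given as the first line minus the second on the log2 scale. With ESR1 knocked down, CCNE1 differed by 0.70 between MM134 and HCC1428 and by 1.00 between MM330 and HCC1428. CDK2 differed by 1.06 between MM134 and HCC1428 and by 0.42 between MM134 and MM330. With FOXA1 knocked down, MYC differed by -0.98 between MM134 and HCC1428 and by -0.58 between MM330 and HCC1428. CCND3 differed by 0.81 between MM134 and HCC1428 and by 1.31 between MM134 and MM330, and CDK2 by 1.49 and 1.54. With MDC1 knocked down, MM134 minus HCC1428 was -0.75 for MYC, -1.16 for MYB and 0.74 for CDK2. CDK4 differed by 0.70 between MM330 and HCC1428 and by -0.47 between MM134 and MM330. Several of the single-line calls behind these pairs were lost under alternatives given above. They include MYC in HCC1428 with FOXA1 or MDC1 knocked down, and MYC in MM330 with FOXA1 knocked down. CCNE1 in MM330 and HCC1428 with ESR1 knocked down, and MYB in HCC1428 and CDK4 in MM134 with MDC1 knocked down, are others.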

How the results depend on the processing

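Of 450 results on single genes of the 10, 380 kept their direction and their side of the threshold under every alternative run, and 70 did not under at least 1. With only the libraries of lower pseudogene share, an alternative chosen after seeing the data, the genes called were 3092 in place of 4690 for E2 in MM330, 2208 in place of 3710 for siMDC1_E2 against siNT_E2 in MM330, 1900 in place of 3604 for siER_E2 against siNT in MM330, 3571 in place of 5462 for siMDC1_E2 against siER_E2 in MM330, 2176 in place of 3875 for siER_E2 against siNT in HCC1428, and 3595 in place of 5428 for the difference in ESR1 knockdown between MM330 and HCC1428. This setting uses fewer libraries. It left 426 of the 450 results on single genes on their side of the threshold and in their direction. Of the 10 genes it called 5 in place of 8 for siER_E2 against siNT in MM330 and 4 in place of 7 for siFOXA1_E2 against siER_E2 in HCC1428, and the latter count ranged from 4 to 7 when single libraries were left out, 4 being without siER_E2 replicate 3. CDK4 reversed from -0.12 to 0.02 (adjusted p = 0.86) between MM134 and HCC1428 in siNT. For siMDC1_E2 against siNT_E2 in MM330, 1 of the 10 genes was called in the report, 4 with the 6 compared libraries fitted alone, 3 without a filter on low counts, and 1 to 2 with single libraries left out, 2 being without siNT_E2 replicate 2. The cause of these shifts was not tested.

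With the replicate number as a block, genes called came to between 0.80 and 1 of the number without it. The lowest was siMDC1_E2 against siNT_E2 in HCC1428, with 4238 in place of 5319 genes and 6 in place of 9 of the 10. In HCC1428, siNT_E2 replicate 4 bears a number that no other library has, so the block in effect leaves it out. The HCC1428 comparisons with siNT_E2 came to 0.80 to 0.91 of the number, and those without siNT_E2 to 0.97 to 0.99. For E2 in MM134 the block gave 9605 in place of 9648 genes and 10 of the 10. The labels give no shared origin for the numbers. The correlations did not pair the libraries in MM134 or MM330. For HCC1428 the check could not decide, since each comparison there held only 2 same-numbered pairs.

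At 4 to 17 counts per library, MYC in siNT and siER_E2 of MM330 has limited precision.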
